A study of Homo sapiens with 15 samples.

Results

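The genes of cholesterol and fatty acid synthesis were followed in MH7A cells, an established human synovial fibroblast-like cell line, across 5 conditions. The set held 29 genes taken as a list of named enzymes and regulators, drawn up with earlier results of these data known: 18 sterol enzymes, 7 fatty acid and lipid enzymes, and 4 regulators or carriers, which are SREBF1, SREBF2, INSIG1 and STARD4. Of these, 27 had a transcript cluster (the probe set of 1 gene on the array) annotated to that symbol alone, and all 27 were among the 16872 genes tested of 18417 named on the array. FDFT1 and HSD17B7 were not analysed here. Where a symbol had several clusters, the one with the highest mean signal was used.

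RNA was hybridised to Affymetrix Human Gene 1.0 ST arrays, 15 in all, and each of 3 separately repeated experiments gave 1 array per condition. Resting cells received no cytokine. Every other condition received interleukin-1β (IL-1β) at 15 pg/ml for 13 h, either alone, with glucosamine (GlcN) at 5 mM added 2.5 h earlier, with GlcN and alloxan, or with alloxan and no GlcN. Alloxan, used as an inhibitor of O-GlcNAc transferase, was first applied at 5 mM over 30 min, after which 2 mM was kept. The labels state these doses for alloxan with GlcN, and the dose of alloxan without GlcN is not stated separately. All groups were the same line, so resting cells are the only arrays without IL-1β, and no array had GlcN or alloxan without IL-1β.

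Cholesterol is built from acetyl-CoA through mevalonate, farnesyl diphosphate, squalene and lanosterol, and fatty acids are built from the same acetyl-CoA through malonyl-CoA and palmitate. Most enzymes of both routes are transcribed under sterol regulatory element-binding proteins (SREBPs), the products of SREBF1 and SREBF2. INSIG1 holds the SREBP precursor in the endoplasmic reticulum when sterols are plentiful and is itself an SREBP target gene, so these genes often move together. SREBPs bind promoters beside the general factors NF-Y and Sp1.

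The members were well expressed. The values are the log2 signals that the authors deposited, and 26 of the 27 members were above the median of their array on all 15 arrays. The level differed by experiment: all array medians of experiment 1 were at or below 6.21, while those of experiment 2 lay around 7.14 to 7.19 and those of experiment 3 reached 7.54. With IL-1β alone, every one of the 27 members had its lowest value in experiment 1, and the gap between the highest and lowest experiment had a median of 1.06 log2 units over members. With experiments mixed, the arrays of a condition therefore overlapped with the IL-1β arrays for 27 of 27 members in each comparison with IL-1β alone. Conditions were compared within an experiment. Neither this overlap nor the order of experiments was counted over all genes, and the array medians were also lowest in experiment 1. In experiment 3, 10 of 27 members had exactly equal values on at least a pair of the 5 arrays, against 3 in experiment 1 and 4 in experiment 2. Such ties were common on the whole array, in 58.9%, 50.9% and 51.1% of all transcript clusters in experiments 1, 2 and 3. The origin of these ties was not tested. In bulk RNA, a change in the RNA of each cell and a change in the share of cells that express a gene cannot be told apart.

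Tests were made with limma over all 16872 genes with the experiment as a block, and a gene was called at a Benjamini-Hochberg adjusted p under 0.05. A log2 difference is the mean of the 3 within-experiment differences, given with its SD (n = 3 experiments), so that -1 is a halving of the signal. When the experiment was left out of the model, 0 of the 27 members passed in any comparison in limma, with 0 at an unadjusted p under 0.05, and the methods' t-test, run unpaired on the deposited values, called 0 as well. The further normalization of the study's analysis program was not used here, so this is not the study's own procedure. The backgrounds without the experiment were as low, at 0.0178% higher and 0.00593% lower for GlcN, 0% for alloxan in either direction, 0.00593% lower for both agents, 0.0296% higher for GlcN against alloxan and 0.0356% in the F test over all conditions. When the arrays were instead brought to 1 distribution by quantile normalization, a setting chosen after seeing the data, limma without the experiment called 2 members lower for GlcN (background 0.818%), which were ELOVL6 and INSIG1, 3 for alloxan (background 1.11%), which were ACACA, ELOVL6 and FADS1, and 5 for both (background 2.19%), which were ACACA, ELOVL6, INSIG1, LPIN1 and LSS. The same setting called ACACA lower for alloxan added to GlcN, and ACACA and FADS1 higher for GlcN against alloxan. It also called members in the F test, and shares of all genes are not given for these. Calls below that were not made after such alignment of the arrays rest on comparing arrays within an experiment. Over all 5 conditions, the F test called 20 of 27 members, made up of 11 of 16 sterol enzymes, 7 of 7 fatty acid and lipid enzymes and 2 of 4 regulators and carriers. The background was 25% of all genes tested.

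Promoter windows are shown for the 4 members with the smallest p in the F test among those with a window at hand, to set their sequence beside the values that follow. FASN came before INSIG1 in that order and had no window. The windows come from RefSeq on GRCh38.p14, which held 25 of the 29 genes, and run 5′ to 3′ over the 250 bases before the annotated start. Capitals mark matches, on either strand, to GGGCGG (a box bound by Sp1), CCAAT (a box bound by NF-Y) and CACGTG (the E-box), with neighbouring GGGCGG matches overlapping in ACACA and INSIG1.
ELOVL6, chr4:110198616-110198865, minus strand: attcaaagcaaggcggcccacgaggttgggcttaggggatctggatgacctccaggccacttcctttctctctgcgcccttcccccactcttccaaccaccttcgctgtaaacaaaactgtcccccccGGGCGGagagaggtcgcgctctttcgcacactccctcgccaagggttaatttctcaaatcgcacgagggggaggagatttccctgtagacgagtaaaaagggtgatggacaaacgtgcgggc
ACACA, chr17:37406837-37407086, minus strand: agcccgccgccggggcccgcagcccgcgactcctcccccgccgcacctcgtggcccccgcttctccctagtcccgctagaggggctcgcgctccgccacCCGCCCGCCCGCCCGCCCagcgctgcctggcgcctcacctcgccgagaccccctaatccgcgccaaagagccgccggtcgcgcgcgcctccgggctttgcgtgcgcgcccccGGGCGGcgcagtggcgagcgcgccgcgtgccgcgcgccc
LSS, chr21:46228775-46229024, minus strand: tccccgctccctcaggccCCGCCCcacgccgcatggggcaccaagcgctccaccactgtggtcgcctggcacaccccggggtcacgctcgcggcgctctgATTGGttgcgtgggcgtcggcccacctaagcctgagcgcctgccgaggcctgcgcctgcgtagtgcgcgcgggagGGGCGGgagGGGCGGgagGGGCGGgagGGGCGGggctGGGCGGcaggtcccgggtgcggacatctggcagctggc
INSIG1, chr7:155297628-155297877, plus strand: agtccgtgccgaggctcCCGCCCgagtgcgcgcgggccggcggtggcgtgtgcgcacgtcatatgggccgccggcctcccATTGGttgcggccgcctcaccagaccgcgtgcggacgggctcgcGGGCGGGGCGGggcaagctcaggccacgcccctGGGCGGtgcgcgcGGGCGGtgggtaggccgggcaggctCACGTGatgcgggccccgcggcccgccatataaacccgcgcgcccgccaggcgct
ELOVL6 and ACACA, fatty acid genes, showed GGGCGG and no CCAAT. LSS and INSIG1 showed both, and the INSIG1 window also held CACGTG.

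Over windows of 300 bases, 250 before and 50 after the start, CCAAT was found in 12 of 15 sterol enzyme promoters (80%), 1 of 6 fatty acid and lipid promoters (16.7%, SCD) and 3 of 4 regulator and carrier promoters, against 35.7% of all 27305 promoters. GGGCGG was found in 14 of 15, 5 of 6 and 4 of 4 of them, against 44.6% of all promoters. CACGTG was found in LSS, SC5D and INSIG1, or 3 of 25 promoters, against 7.43% of all. The sterol regulatory element core TCACNCCAC was found in SREBF2 and in no other member, against 1.15% of all promoters. Its surroundings are shown because it was the single match, and it was picked after that match was seen.
SREBF2, chr22:41832962-41832991, plus strand: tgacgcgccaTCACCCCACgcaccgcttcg
A match is a description of letters and not a shown binding site. Where none was found, only the absence of these letters from the window is shown.

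**Figure D1:**
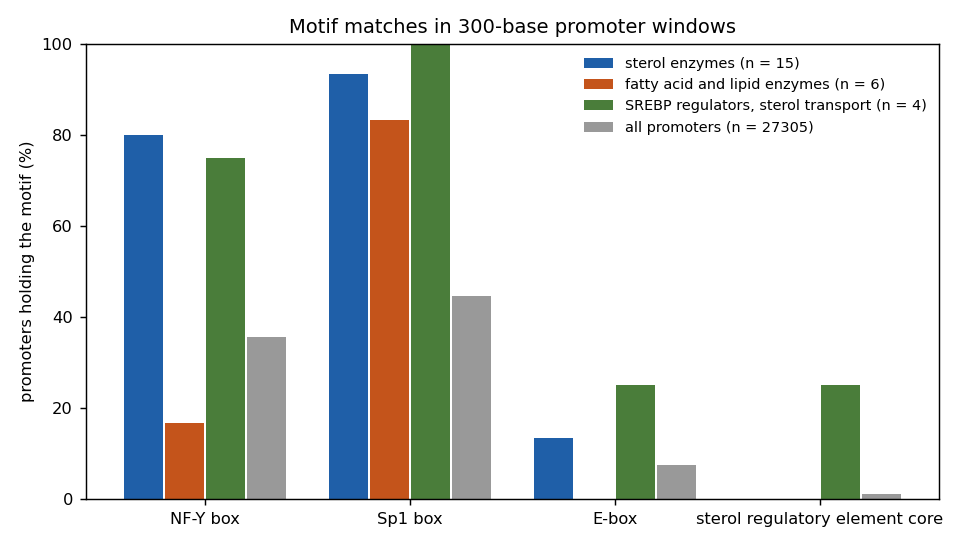
Share of promoters (%, y axis) that held each motif on either strand in a window of 300 bases, for 15 sterol enzymes, 6 fatty acid and lipid enzymes, 4 regulators and carriers, and all 27305 promoters. The NF-Y box was in 80% of sterol enzyme promoters and 16.7% of fatty acid and lipid promoters, and the Sp1 box was in 83.3% or more of each list.

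IL-1β alone left these genes close to their resting level. None of the 27 members was called against resting cells in limma, none had an unadjusted p under 0.05, and the smallest adjusted p was 0.865. The background was 0% in either direction. Mean log2 differences lay between -0.12 for ACAT2 and 0.13 for TM7SF2. The 95% intervals of all members together spanned -0.51 to 0.35, and a p that misses the threshold does not show that levels were equal. The sterol median was -0.03 and the fatty acid median 0.04.

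Adding GlcN, alloxan or both to IL-1β lowered members and raised none past the threshold. GlcN lowered 6 of 27 (background 6.62% of all genes lower and 5.29% higher): INSIG1, ELOVL6, FASN, LPIN1, IDI1 and EBP. Alloxan lowered 10 of 27 (background 7.21% lower and 6.13% higher), which were all 7 fatty acid and lipid enzymes together with LSS, DHCR7 and MSMO1. Both agents together lowered 19 of 27 (background 8.47% lower and 9.06% higher), which were 10 of 16 sterol enzymes, 7 of 7 fatty acid and lipid enzymes, INSIG1 and SREBF1. These 3 comparisons share the IL-1β arrays, so a high IL-1β array would lower all of them.

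The direction was shared by most members, called or not. The log2 difference was negative for 23 of 27 members with GlcN (median -0.13), 24 of 27 with alloxan (median -0.15) and 24 of 27 with both (median -0.31). Over all genes tested these medians were 0.007, 0.01 and -0.003. A lower value in 3 of 3 experiments was found for 14, 18 and 21 of 27 members, against 16.3%, 16.1% and 17.1% of all genes. ELOVL6, FASN and LPIN1 were called for each agent alone and for both. ACAT2, FDPS, HMGCS1, MVD, PMVK, SQLE and SREBF1 were called with both agents and with neither alone, which does not show that their change with both was larger.

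Experiment 3 had the smallest change for 17 members with GlcN, 19 with alloxan and 21 with both. How often it had the smallest change was not counted over all genes, so this is not shown to be particular to the members. With the block kept but the spread taken from only the arrays of the groups compared, 0 members were called for GlcN (9 lower and 2 higher at an unadjusted p under 0.05), 0 for alloxan (14 lower and 0 higher) and 1 for both together, which was ELOVL6 (14 lower and 1 higher). The unadjusted counts have no background from this fit. In the limma fit on all arrays, 4183, 4416 and 4847 of 16872 genes had an unadjusted p under 0.05 for GlcN, alloxan and both. With 1 array left out, 3 members were called for GlcN without the IL-1β array of experiment 1 or that of experiment 2, 4 without the GlcN array of experiment 1 and 9 without the IL-1β array of experiment 3. For alloxan the count was 5 without the IL-1β or the alloxan array of experiment 1, and 6 without the IL-1β array of experiment 2 or the alloxan array of experiment 2 or 3. For both agents it was 12 without their own array of experiment 2. In the same order, all genes called for GlcN numbered 1492, 1149, 2064 and 1943, against 1117 lower and 893 higher with every array. For alloxan they numbered 1637, 1340, 1388, 1564 and 1405, against 1216 lower and 1034 higher. For both agents they numbered 2067, against 1429 lower and 1529 higher. Kept whichever 1 of the 15 arrays was left out were ELOVL6, FASN and INSIG1 for GlcN, ACACA, ELOVL6, FADS1, FASN and LSS for alloxan, and 12 members for both. Kept whichever whole experiment was left out were ELOVL6 for GlcN, ACACA and ELOVL6 for alloxan, and 5 members for both.

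**Figure D2:**
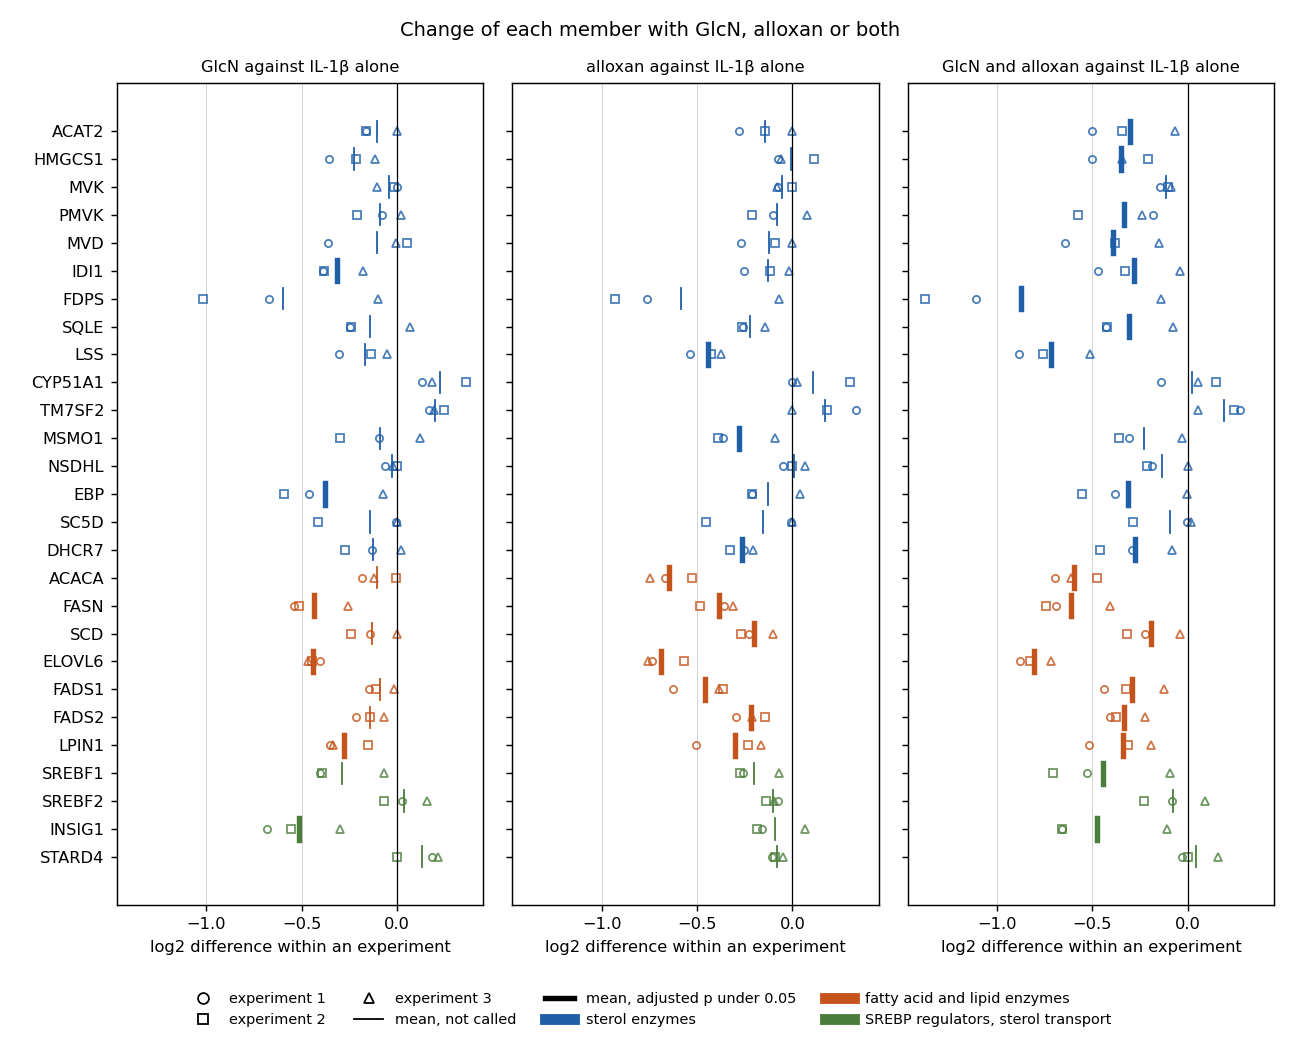
Log2 difference (x axis) of each of the 27 members from IL-1β alone in the same experiment, with GlcN, alloxan or both; open symbols are the 3 experiments, short lines the means, and thick lines members called by limma with the experiment as a block. Called means lie below 0 in each panel, with 6, 10 and 19 of them, and triangles of experiment 3 are often nearest to 0.

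Among the regulators, INSIG1 showed the clearest response to GlcN. Its log2 signal in experiments 1, 2 and 3 was 10.13, 11.32 and 11.30 in resting cells, 10.19, 11.24 and 11.15 with IL-1β alone, 9.51, 10.68 and 10.85 with GlcN, 10.03, 11.06 and 11.22 with alloxan and 9.53, 10.58 and 11.04 with both. Within each experiment the GlcN array and the array with both agents were below the IL-1β array, while the alloxan array was lower in 2 experiments and higher in 1. GlcN lowered INSIG1 by a log2 difference of -0.51 ± 0.20 (SD, n = 3 experiments, limma adjusted p = 0.00438), and both agents together by -0.48 ± 0.32 (limma adjusted p = 0.00425). The difference with alloxan was -0.09 ± 0.14 (limma adjusted p = 0.616).

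SREBF1 encodes the SREBP that mainly drives fatty acid genes, and the cluster does not separate its isoforms. Its log2 signal was 8.35, 9.72 and 9.57 in resting cells, 8.43, 9.81 and 9.64 with IL-1β alone, 8.03, 9.42 and 9.57 with GlcN, 8.17, 9.54 and 9.57 with alloxan and 7.90, 9.10 and 9.55 with both. The treated arrays were below the IL-1β array in every experiment, by small amounts in experiment 3. The change was called for both agents together, at -0.44 ± 0.31 (SD, n = 3, limma adjusted p = 0.00863), and was -0.29 ± 0.19 with GlcN (limma adjusted p = 0.0827) and -0.20 ± 0.12 with alloxan (limma adjusted p = 0.222).

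SREBF2 encodes the SREBP that mainly drives sterol genes. Its log2 signal was 9.26, 10.71 and 10.75 in resting cells, 9.31, 10.77 and 10.81 with IL-1β alone, 9.33, 10.71 and 10.97 with GlcN, 9.23, 10.63 and 10.72 with alloxan and 9.22, 10.54 and 10.90 with both. The GlcN arrays were above and below IL-1β alone in different experiments. The differences were 0.04 ± 0.11 with GlcN, -0.10 ± 0.03 with alloxan and -0.08 ± 0.16 with both, with limma adjusted p from 0.321 to 0.77. STARD4, a cytosolic cholesterol carrier, was at 0.13 ± 0.12 with GlcN, -0.08 ± 0.03 with alloxan and 0.04 ± 0.10 with both, and was not called in these comparisons.

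**Figure D3:**
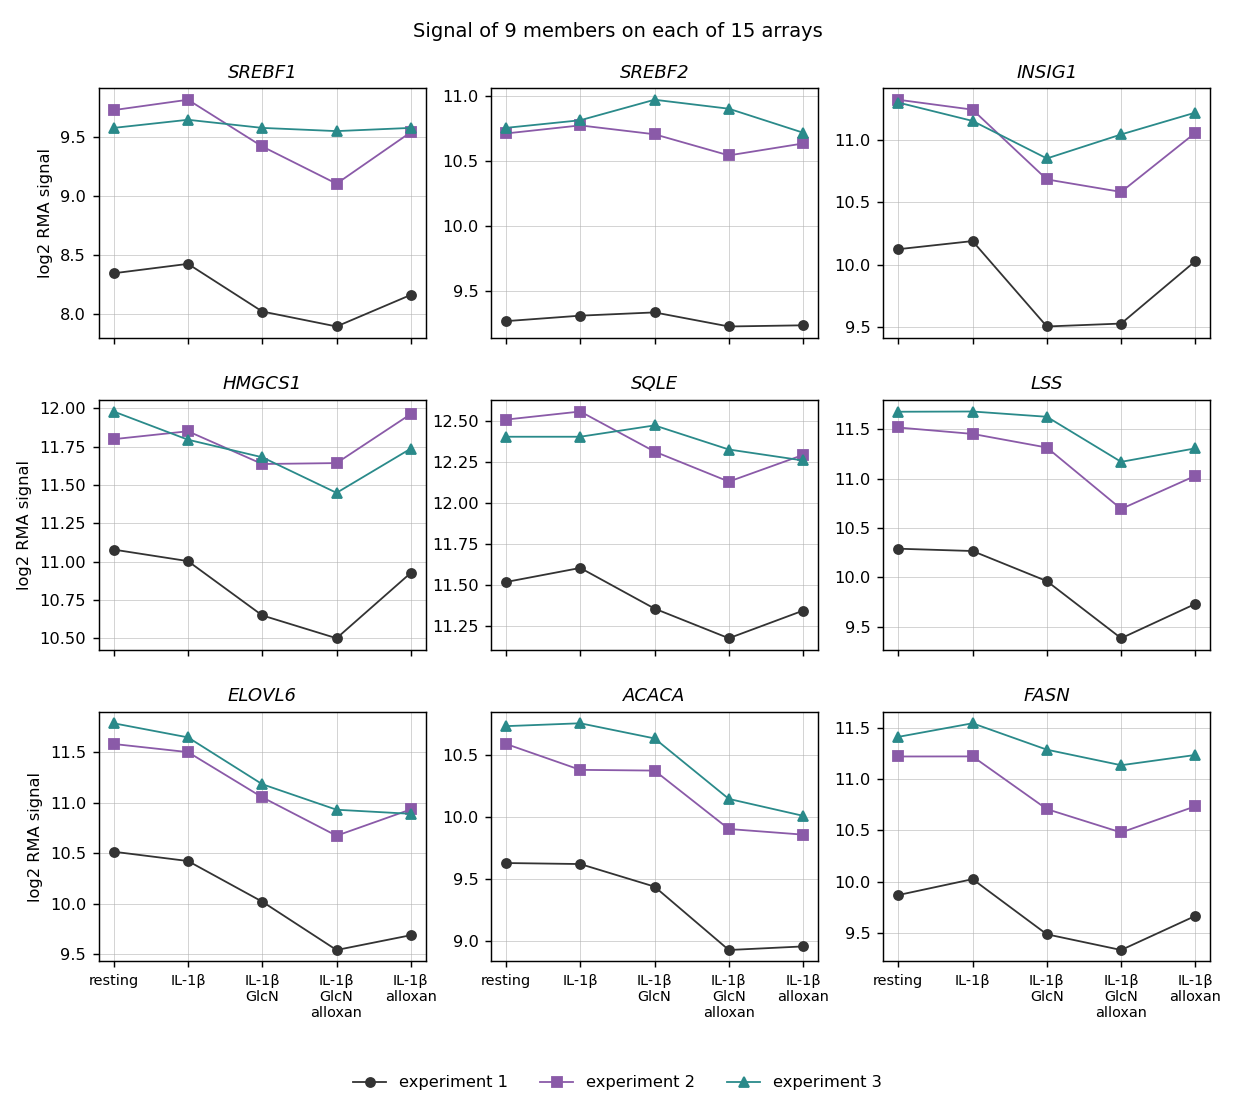
Log2 RMA signal (y axis) of 9 members on each of the 15 arrays, by condition (x axis), with a line for each experiment. Experiment 1 lies below the other experiments throughout. INSIG1 is lowest on the arrays with GlcN and ACACA on the arrays with alloxan.

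The early sterol enzymes run from acetyl-CoA to farnesyl diphosphate, and 6 of the 7 measured were lower with both agents, where 8.47% of all genes were lower. ACAT2 (cytosolic acetoacetyl-CoA thiolase), HMGCS1 (HMG-CoA synthase), PMVK (phosphomevalonate kinase), MVD (mevalonate diphosphate decarboxylase), IDI1 (isopentenyl diphosphate isomerase) and FDPS (farnesyl diphosphate synthase) were called, and MVK (mevalonate kinase) was not, at -0.11 ± 0.03. GlcN alone lowered IDI1, and alloxan alone lowered none of the 7.

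HMGCS1 gave log2 signals of 11.08, 11.80 and 11.98 in resting cells, 11.00, 11.85 and 11.80 with IL-1β alone, 10.65, 11.64 and 11.68 with GlcN, 10.93, 11.96 and 11.74 with alloxan and 10.50, 11.64 and 11.45 with both. The array with both agents was below IL-1β alone in each experiment, and the alloxan array was above it in experiment 2. The log2 difference was -0.35 ± 0.15 with both (SD, n = 3, limma adjusted p = 0.00953), -0.23 ± 0.12 with GlcN (limma adjusted p = 0.0904) and -0.01 with alloxan (limma adjusted p = 0.994).

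FDPS had the largest mean change of all members with both agents and the largest spread. Its log2 signal was 9.60, 11.06 and 10.40 in resting cells, 9.68, 10.99 and 10.15 with IL-1β alone, 9.01, 9.97 and 10.06 with GlcN, 8.91, 10.06 and 10.09 with alloxan and 8.57, 9.61 and 10.02 with both. In experiments 1 and 2 the treated arrays were well below IL-1β alone, and in experiment 3 they were close to it. Its differences with both agents in experiments 1, 2 and 3 were -1.11, -1.38 and -0.14, a mean of -0.88 ± 0.65 (SD, n = 3, limma adjusted p = 0.00904). With single agents it was -0.60 ± 0.46 for GlcN (limma adjusted p = 0.0724) and -0.59 ± 0.46 for alloxan (limma adjusted p = 0.0716), neither called. FDPS has processed pseudogenes of similar sequence, and cross-hybridisation with them was not tested.

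IDI1 had log2 signals of 11.21, 12.04 and 11.92 in resting cells, 11.30, 11.91 and 11.78 with IL-1β alone, 10.91, 11.53 and 11.60 with GlcN, 11.04, 11.80 and 11.77 with alloxan and 10.83, 11.58 and 11.74 with both. All 9 treated arrays were below the IL-1β array of their experiment. Its difference was -0.32 ± 0.12 with GlcN (limma adjusted p = 0.0123) and -0.28 ± 0.22 with both (limma adjusted p = 0.016).

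ACAT2 had log2 signals of 10.67, 11.34 and 11.46 in resting cells, 10.59, 11.24 and 11.28 with IL-1β alone, 10.43, 11.08 and 11.28 with GlcN, 10.31, 11.10 and 11.28 with alloxan and 10.08, 10.90 and 11.21 with both. With both agents it was lower in every experiment, least in experiment 3, at -0.31 ± 0.22 (SD, n = 3, limma adjusted p = 0.00914). MVD had log2 signals of 9.29, 10.48 and 10.52 in resting cells, 9.24, 10.31 and 10.39 with IL-1β alone, 8.88, 10.37 and 10.39 with GlcN, 8.97, 10.22 and 10.39 with alloxan and 8.60, 9.93 and 10.24 with both. Its arrays with both agents were the lowest of their experiment, at a difference of -0.39 ± 0.24 (limma adjusted p = 0.00762), and PMVK was at -0.33 ± 0.21 (limma adjusted p = 0.00598).

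The late sterol enzymes carry squalene to cholesterol, and here LSS, which closes the sterol rings as lanosterol synthase, stood out with alloxan. Its log2 signal was 10.29, 11.52 and 11.68 in resting cells, 10.27, 11.46 and 11.68 with IL-1β alone, 9.96, 11.32 and 11.63 with GlcN, 9.73, 11.03 and 11.31 with alloxan and 9.38, 10.69 and 11.17 with both. In every experiment the order was the same, with the array of both agents lowest, alloxan next, then GlcN, then IL-1β alone. The log2 difference was -0.44 ± 0.08 with alloxan (SD, n = 3, limma adjusted p = 0.00185) and -0.72 ± 0.19 with both (limma adjusted p = 4.06e-05), or 0.608-fold of the IL-1β level. With GlcN it was -0.17 ± 0.13 (limma adjusted p = 0.16).

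SQLE, squalene epoxidase, gave log2 signals of 11.52, 12.51 and 12.40 in resting cells, 11.60, 12.56 and 12.40 with IL-1β alone, 11.36, 12.31 and 12.47 with GlcN, 11.35, 12.29 and 12.26 with alloxan and 11.18, 12.13 and 12.32 with both. The arrays with both agents were below IL-1β alone in each experiment, and the GlcN array was above it in experiment 3. The difference was -0.31 ± 0.20 with both (SD, n = 3, limma adjusted p = 0.0095), -0.22 ± 0.07 with alloxan (limma adjusted p = 0.0573) and -0.14 ± 0.18 with GlcN (limma adjusted p = 0.243).

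Of the enzymes after lanosterol, DHCR7, the reductase of the last step, was lower with alloxan at -0.26 ± 0.06 (limma adjusted p = 0.0305) and with both at -0.28 ± 0.19 (limma adjusted p = 0.0181). EBP, a sterol isomerase, was lower with GlcN at -0.38 ± 0.27 (limma adjusted p = 0.0202) and with both at -0.31 ± 0.28 (limma adjusted p = 0.0353). MSMO1, a methylsterol oxidase, was lower with alloxan at -0.28 ± 0.17 (limma adjusted p = 0.0286) and just missed the threshold with both, at -0.23 ± 0.18 (limma adjusted p = 0.0533). NSDHL and SC5D were not called with either agent or both.

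A pair of late enzymes had positive values. CYP51A1, lanosterol demethylase, was at 0.23 ± 0.12 with GlcN, positive in 3 of 3 experiments, and just missed the threshold (limma adjusted p = 0.0506). It was called higher when the filter on dim genes was at the 50th percentile (adjusted p = 0.0364), after quantile normalization (0.0230), after a shift to equal medians (0.0486) and with an intensity trend and robust moderation (0.0434). With both agents it was at 0.02 ± 0.15. TM7SF2, a sterol reductase, was at 0.20 ± 0.04 with GlcN and 0.19 ± 0.12 with both, positive in 3 of 3 experiments each and not called.

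The fatty acid and lipid enzymes were lower with alloxan in every case. All 7 were called, and all 7 were below IL-1β alone in each of the 3 experiments. ELOVL6, which lengthens palmitate, and ACACA, the acetyl-CoA carboxylase that makes malonyl-CoA, changed most.

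ELOVL6 had log2 signals of 10.52, 11.58 and 11.79 in resting cells, 10.42, 11.50 and 11.65 with IL-1β alone, 10.02, 11.05 and 11.18 with GlcN, 9.69, 10.94 and 10.89 with alloxan and 9.54, 10.67 and 10.93 with both. All 9 treated arrays were below the IL-1β and resting arrays of their experiment. Its log2 difference was -0.44 ± 0.03 with GlcN (SD, n = 3, limma adjusted p = 0.000542), -0.69 ± 0.10 with alloxan (limma adjusted p = 4.16e-05) and -0.81 ± 0.08 with both (limma adjusted p = 7e-06). These were 0.738-fold, 0.621-fold and 0.571-fold of the IL-1β level. ELOVL6 was also the single member called for GlcN, for alloxan and for both whichever array or whole experiment was left out.

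ACACA had log2 signals of 9.63, 10.59 and 10.74 in resting cells, 9.62, 10.38 and 10.76 with IL-1β alone, 9.44, 10.38 and 10.64 with GlcN, 8.95, 9.86 and 10.01 with alloxan and 8.92, 9.90 and 10.15 with both. The 6 arrays with alloxan were the lowest of their experiments, and the GlcN arrays lay closer to IL-1β alone. It was at -0.65 ± 0.11 with alloxan (SD, n = 3, limma adjusted p = 3.53e-05) and -0.60 ± 0.11 with both (limma adjusted p = 2.09e-05), against -0.10 ± 0.09 with GlcN (limma adjusted p = 0.247).

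FASN, the synthase that makes palmitate, had log2 signals of 9.87, 11.22 and 11.41 in resting cells, 10.02, 11.22 and 11.55 with IL-1β alone, 9.49, 10.71 and 11.29 with GlcN, 9.67, 10.74 and 11.24 with alloxan and 9.33, 10.48 and 11.14 with both. All 9 treated arrays were below the IL-1β array of their experiment. The difference was -0.44 ± 0.16 with GlcN (SD, n = 3, limma adjusted p = 0.0047), -0.38 ± 0.09 with alloxan (limma adjusted p = 0.00916) and -0.61 ± 0.18 with both (limma adjusted p = 0.000318).

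The desaturases put double bonds into fatty acids, and their signals were among the highest of the members. SCD, the stearoyl-CoA desaturase, had log2 signals of 12.43, 13.13 and 13.14 in resting cells, 12.55, 13.21 and 13.07 with IL-1β alone, 12.40, 12.97 and 13.07 with GlcN, 12.32, 12.94 and 12.97 with alloxan and 12.32, 12.89 and 13.03 with both. It was below IL-1β alone on all alloxan arrays and equal to it on the GlcN array of experiment 3. Its difference was -0.20 ± 0.09 with alloxan (SD, n = 3, limma adjusted p = 0.0259), -0.19 ± 0.14 with both (limma adjusted p = 0.023) and -0.13 ± 0.12 with GlcN (limma adjusted p = 0.145).

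FADS1 and FADS2 desaturate polyunsaturated fatty acids and are neighbours on chromosome 11. FADS1 had log2 signals of 11.83, 12.87 and 12.80 in resting cells, 11.99, 12.78 and 12.87 with IL-1β alone, 11.85, 12.67 and 12.85 with GlcN, 11.37, 12.41 and 12.48 with alloxan and 11.55, 12.46 and 12.74 with both. Its alloxan arrays were lower than those with both agents in each experiment. It was at -0.46 ± 0.15 with alloxan (SD, n = 3, limma adjusted p = 0.00169) and -0.30 ± 0.16 with both (limma adjusted p = 0.0127), against -0.09 ± 0.07 with GlcN (limma adjusted p = 0.483).

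FADS2 had log2 signals of 11.89, 12.65 and 12.59 in resting cells, 11.91, 12.73 and 12.67 with IL-1β alone, 11.70, 12.59 and 12.60 with GlcN, 11.62, 12.58 and 12.46 with alloxan and 11.50, 12.35 and 12.45 with both. All 9 treated arrays were below IL-1β alone in their experiment. It was at -0.22 ± 0.08 with alloxan (SD, n = 3, limma adjusted p = 0.02), -0.34 ± 0.10 with both (limma adjusted p = 0.00119) and -0.14 ± 0.07 with GlcN (limma adjusted p = 0.119).

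LPIN1, the phosphatidate phosphatase lipin-1, had log2 signals of 9.73, 10.59 and 10.86 in resting cells, 9.81, 10.59 and 10.88 with IL-1β alone, 9.46, 10.44 and 10.55 with GlcN, 9.30, 10.36 and 10.71 with alloxan and 9.29, 10.28 and 10.69 with both. All 9 treated arrays were below IL-1β alone in their experiment. It was at -0.28 ± 0.11 with GlcN (SD, n = 3, limma adjusted p = 0.0286), -0.30 ± 0.18 with alloxan (limma adjusted p = 0.019) and -0.34 ± 0.16 with both (limma adjusted p = 0.00742).

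Set side by side within each experiment, the fatty acid genes were lower than the sterol genes with alloxan. The median log2 difference over the 7 fatty acid and lipid enzymes was -0.51, -0.36 and -0.31 in experiments 1, 2 and 3, and over the 16 sterol enzymes it was -0.23, -0.18 and -0.01. The sterol median was thus above the fatty acid median by 0.27, 0.19 and 0.30. With both agents the gap was 0.18, 0.02 and 0.15, and with GlcN it was 0.07, -0.06 and 0.12, so that the lists traded places in experiment 2. In resting cells the gap was 0.08, 0.01 and 0.05. The list medians are a description and carry no test, because the lists differ in size and their genes are not replicates.

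**Figure D4:**
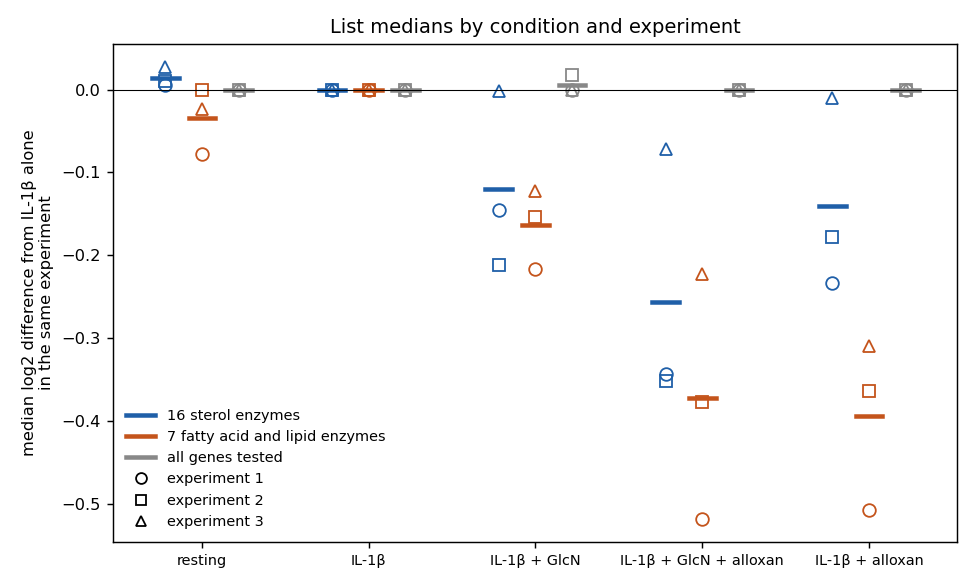
Median log2 difference from IL-1β alone in the same experiment (y axis) over 16 sterol enzymes, 7 fatty acid and lipid enzymes and all genes tested, by condition (x axis); symbols are the 3 experiments and lines their mean. With alloxan the fatty acid medians lie from -0.51 to -0.31 and the sterol medians from -0.23 to -0.01, while the median over all genes stays between 0 and 0.02 in every condition.

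The agents were compared directly on their own arrays, a comparison added after the data were seen. With GlcN, 5 of 27 members were higher than with alloxan and 1 was lower (background 7.66% higher and 7.83% lower). ACACA was higher with GlcN by 0.54 ± 0.07 log2 units (SD, n = 3, limma adjusted p = 4.76e-05), FADS1 by 0.37 ± 0.11 (limma adjusted p = 0.00425), LSS by 0.28 ± 0.05 (limma adjusted p = 0.0177), ELOVL6 by 0.25 ± 0.11 (limma adjusted p = 0.0114) and STARD4 by 0.22 ± 0.11 (limma adjusted p = 0.0261). INSIG1 was lower with GlcN, at -0.42 ± 0.09 (limma adjusted p = 0.00951). Each of the 6 differed the same way in 3 of 3 experiments. The sterol median of this difference was 0.02 and the fatty acid median 0.08. FASN was at -0.05 ± 0.12 with an interval of -0.23 to 0.12, LPIN1 at 0.02 ± 0.17 with -0.14 to 0.18, and FDPS at -0.01 with -0.44 to 0.42, which leaves differences of those sizes possible. With only the 2 groups compared, ACACA and INSIG1 were still called (adjusted p = 0.0320 and 0.0460). Without the alloxan array of experiment 1, and without that of experiment 3, 3 members were called. All genes called then numbered 1789 and 1832, against 1292 higher and 1321 lower with every array. In these fits 3 of 27 was near the share of all genes.

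Alloxan was then compared on a background of GlcN, on arrays that the comparison of alloxan with IL-1β alone did not use. Adding alloxan to GlcN lowered 3 of 27 members and raised none (background 3.52% lower and 3.27% higher). LSS was at -0.55 ± 0.09 (SD, n = 3, limma adjusted p = 0.00103), ACACA at -0.49 ± 0.02 (limma adjusted p = 0.000442) and ELOVL6 at -0.37 ± 0.11 (limma adjusted p = 0.0032). These 3 were called whichever array was left out. Of the 27 members, 20 had a negative difference with alloxan both without and with GlcN, against 28.8% of all genes. Across the 27 members the 2 differences had Pearson's r = 0.628 and Spearman's rho = 0.46, and across all genes r = 0.582. The points share experiments, and genes are not independent replicates.

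In the presence of alloxan, GlcN lowered 2 of 27 members and raised none (background 1.67% lower and 1.86% higher). HMGCS1 was at -0.34 ± 0.07 (SD, n = 3, limma adjusted p = 0.0365) and INSIG1 at -0.38 ± 0.18 (limma adjusted p = 0.0464). Both lay near the threshold. INSIG1 was lost on leaving out any 1 of 13 of the 15 arrays and HMGCS1 on leaving out any 1 of 7, and 0 to 3 members were called across those settings. LSS was at -0.27 ± 0.12 (limma adjusted p = 0.0543), lower in 3 of 3 experiments. Of the 27 members, 18 were lower with GlcN both without and with alloxan, against 31.3% of all genes. Across members the differences had Pearson's r = 0.579 and Spearman's rho = 0.581, against r = 0.642 over all genes.

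**Figure D5:**
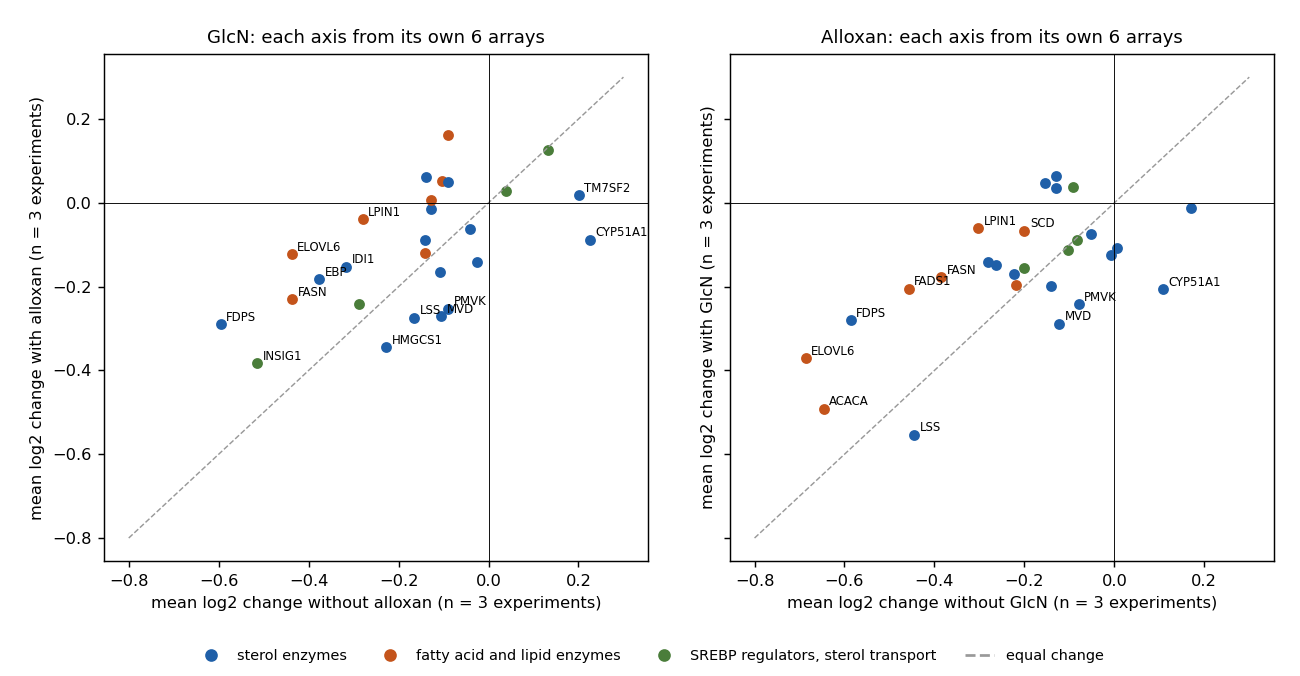
Mean log2 change of each of the 27 members with GlcN (left) or alloxan (right), without the other agent on the x axis and with it on the y axis, each from its own 6 arrays (n = 3 experiments); members beyond 0.2 on either axis are named where space allows, and the dashed line marks equal change. INSIG1 is far to the lower left for GlcN, and ACACA, ELOVL6 and LSS for alloxan.

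Whether alloxan altered the GlcN response was asked with the interaction, the GlcN difference with alloxan minus that without. No member was called (limma, smallest adjusted p = 0.220, background 0.0119% higher and 0.0593% lower). An unadjusted limma p under 0.05 was found for 4 of 27 members, near the background of 1860 of 16872 genes. The 4 members were ELOVL6 at 0.32 ± 0.17, FADS1 at 0.25 ± 0.09 and LPIN1 at 0.24 ± 0.14, where the change with both was smaller than the sum of the single changes, and CYP51A1 at -0.31 ± 0.19. The value was positive for all 7 fatty acid and lipid enzymes, with a median of 0.21. The IL-1β arrays enter the interaction with a positive sign, so a high IL-1β array would raise this value. For the 7 genes called with both agents and with neither alone, it ran from -0.17 for MVD to 0.31 for FDPS and was not called, so a larger change with both than the sum of the single changes was not shown for them. Set against each agent alone, their level with both was lower than with alloxan for HMGCS1, as given above, and was not called lower than with alloxan for the other 6 (limma adjusted p from 0.0728 to 0.589) or than with GlcN for any of the 7 (limma adjusted p from 0.0589 to 0.427).

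Genes next to these routes were read from 5 further lists. Over all genes, 5.29% rose and 6.62% fell with GlcN, and 6.13% rose and 7.21% fell with alloxan, so that 1 or 2 calls among 20 genes are near the background. Of the 20 calls of genes named by the fixed rule, 8 were kept whichever array was left out, which were ELOVL7 and MBTPS2 with GlcN and ELOVL7, LBR, LIPA, LPCAT3, MYLIP and PPARA with alloxan. Of 8 tested genes of sterol synthesis, uptake and storage, 1 rose and none fell with GlcN, while 1 rose and 4 fell with alloxan. GGPS1, which makes geranylgeranyl diphosphate from the mevalonate route, rose with GlcN (0.18 ± 0.12, SD, n = 3, limma adjusted p = 0.0273) and with alloxan (0.19 ± 0.06, limma adjusted p = 0.0169). LIPA, the lysosomal acid lipase, fell with alloxan (-0.53 ± 0.11, limma adjusted p = 0.000636), as did SOAT1, which esterifies cholesterol (-0.36 ± 0.14, limma adjusted p = 0.0104), and LBR, a nuclear envelope protein with sterol reductase activity (-0.26 ± 0.10, limma adjusted p = 0.00735). The other one that fell was the cholesterol transporter NPC1 (-0.20 ± 0.07, limma adjusted p = 0.045), named after its value was seen.

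Of 5 tested genes of SREBP processing, MBTPS2, a protease that releases SREBPs from the membrane, rose with GlcN (0.57 ± 0.22, SD, n = 3, limma adjusted p = 0.00869), and MBTPS1, the protease that acts before it, fell with alloxan (-0.18 ± 0.09, limma adjusted p = 0.0264). SCAP, the escort of SREBPs, was at -0.11 ± 0.08 with GlcN and 0.04 ± 0.11 with alloxan, not called. INSIG2, the relative of INSIG1, was at -0.12 ± 0.12 and 0.01 ± 0.02, and the ubiquitin ligase RNF139 at 0.02 ± 0.06 and 0.19 ± 0.10, not called either.

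Of 20 tested genes of fatty acid and glycerolipid synthesis outside the members, 2 rose and 2 fell with GlcN, and 2 rose and 2 fell with alloxan. These counts are near the background, 5.29% higher and 6.62% lower for GlcN and 6.13% higher and 7.21% lower for alloxan. ACLY, the ATP citrate lyase that supplies acetyl-CoA to both routes, fell with GlcN (-0.27 ± 0.02, SD, n = 3, limma adjusted p = 0.0109), with alloxan (-0.22 ± 0.03, limma adjusted p = 0.0262) and with both (-0.49 ± 0.10, limma adjusted p = 0.000152). ELOVL7, an elongase of the same family as ELOVL6, rose where ELOVL6 fell, with GlcN (0.36 ± 0.12, limma adjusted p = 0.00403) and with alloxan (0.43 ± 0.14, limma adjusted p = 0.00147). HSD17B12, an enzyme of the elongation cycle, rose with GlcN (0.40 ± 0.25, limma adjusted p = 0.0163), and AGPAT2, an acyltransferase of glycerolipid synthesis, rose with alloxan (0.24 ± 0.13, limma adjusted p = 0.0238). DGAT2 with GlcN and ELOVL1 with alloxan, named after their values were seen, completed the genes that fell.

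Of 6 tested genes of cholesterol efflux and its nuclear receptors, ABCA1, the cholesterol exporter, fell with GlcN (-0.73 ± 0.40, SD, n = 3, limma adjusted p = 0.00948) and was at -0.29 ± 0.27 with alloxan (limma adjusted p = 0.256). MYLIP, a ubiquitin ligase for lipoprotein receptors, rose with GlcN (0.36 ± 0.20, limma adjusted p = 0.0111) and with alloxan (0.59 ± 0.16, limma adjusted p = 0.000666), and LPCAT3, a phospholipid acyltransferase, fell with alloxan (-0.25 ± 0.02, limma adjusted p = 0.00581).

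Of 11 tested genes of fatty acid oxidation and PPAR signalling, 1 rose with GlcN and 2 with alloxan, and none fell with either agent. Over all genes, 5.29% rose with GlcN and 6.13% with alloxan. With 11 genes, the absence of a fall is near the background of 6.62% lower for GlcN and 7.21% lower for alloxan. PPARA, a nuclear receptor for fatty acids, rose with GlcN (0.19 ± 0.08, SD, n = 3, limma adjusted p = 0.0114) and with alloxan (0.19 ± 0.07, limma adjusted p = 0.00884), and its target ANGPTL4, an inhibitor of lipoprotein lipase, rose with alloxan (0.16 ± 0.04, limma adjusted p = 0.024). PLIN2, which coats lipid droplets, was at -0.06 ± 0.13 with GlcN and 0.17 ± 0.08 with alloxan, and HADHB, a subunit of the oxidation enzyme complex of mitochondria, at -0.09 ± 0.14 and 0.11 ± 0.12, with no call.

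Of 10 fibroblast markers, those of the labelled cell type, 5 were called lower with GlcN, 6 with alloxan and 6 with both, where 6.62%, 7.21% and 8.47% of all genes were, and none was called higher. The others were not called, with log2 differences up to 0.15 with GlcN. Their summed linear signal, as a share of that on the IL-1β array of the same experiment, was 88.2% to 97.7% with GlcN, 78.8% to 86.6% with alloxan and 78.8% to 89.8% with both, against 94.1% to 98.6% in resting cells. Of the 6 macrophage and leukocyte markers and the 4 endothelial markers, all were below the array median on all 15 arrays, and the summed signal of the leukocyte list stayed between 93.7% and 105%. The summed endothelial signal was 86.3% to 98.8% with both agents, where 2 of its markers were called lower, and 96.1% to 101% with either agent alone. The summed epithelial signal was 102% to 120% with GlcN, 88.2% to 95.7% with alloxan and 93.2% to 95.4% with both, and 1 of its 3 markers was called lower with alloxan, which was CDH1. The summed adipocyte and hepatocyte signal lay between 96.6% and 106%. What part any of these shifts had in the members' values was not tested.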

How the data were processed

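The data are 15 Human Gene 1.0 ST arrays of RNA from MH7A cells, 3 for each of 5 conditions. Per the labels and the study's methods, the authors used RMA in the program Affymetrix Expression Console, and the deposited values are log2 signals, 1 per transcript cluster, with background correction and normalization already applied. The version of that program is not given in the sources used here. Condition and experiment number of each array come from the labels. No detection calls were used, and precision is limited by how few arrays a condition has.

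Of 33297 clusters, 19460 carried 1 symbol in the platform annotation and 1754 several, which were left out. The brightest cluster of a symbol was kept where it exceeded the 20th percentile on 3 or more arrays, which left 16872 genes. Differences were fitted with lmFit and eBayes of limma 3.58.1 (R 4.3.3, two-sided) on all 15 arrays as 5 condition means with the experiment as a fixed block, with 8 residual degrees of freedom, and adjusted by the Benjamini-Hochberg method over all genes. The study's methods name Student's t-test, and its supplement records the run as unpaired, with no correction for multiple testing. It was run in a program that held further normalised values, not used here. The block was used because conditions were to be compared within an experiment. The labels give the experiment number, and the deviations of arrays from their condition means correlated at 0.621 or more in 30 pairs with the same number and at -0.068 or less in 60 pairs that differed in number and condition. No arrays were duplicates (highest correlation 0.9958). How far the experiments were separate is not described further. The block removes the level of each experiment. The p-values therefore measure how far differences between conditions varied from experiment to experiment, with the spread pooled over all 5 conditions.

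The members and lists were chosen with earlier results of these data known. Values on every array are given for SREBF1, SREBF2, INSIG1, HMGCS1, SQLE, LSS, SCD, FASN and FADS2 and for the 8 other members with the smallest p in the F test, and up to 3 genes per agent are named from each further list by smallest p. Alternatives were no block, no filter, a stricter filter (50th percentile), averaging the clusters of a symbol, quantile normalization, equal array medians, fits on only the groups compared, robust moderation with an intensity trend, the methods' t-test run unpaired on the deposited values, other list borders, and leaving out each array or experiment. Fits without the block, and the t-test, on arrays brought to a common level were added after seeing the data. Promoters were scanned, and figures drawn with matplotlib 3.10.9, in Python 3.11.15. The fits were tested on simulated data.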

Additional observations from a re-analysis of the deposited data

How the results depend on the processing

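The fit without the experiment as a replicate block called 0 members for GlcN, 0 for alloxan, 0 for both agents, 0 for alloxan added to GlcN, 0 for GlcN added to alloxan, 0 for GlcN against alloxan and 0 in the F test over the 5 conditions. Its median standard error was 0.596 log2 units, against 0.0647 with the block, and no member had an unadjusted p under 0.05 there. The methods' t-test, run unpaired on the deposited values without the study's further normalization, called 0 in each comparison, after adjustment or at 1.5-fold with an unadjusted p under 0.05.

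In settings chosen after seeing the data, array levels were aligned in place of the block. After quantile normalization the fit without the replicate block called 2 for GlcN, 3 for alloxan, 5 for both, 1 for alloxan added to GlcN, 0 for GlcN added to alloxan, 2 for GlcN against alloxan and 5 in the F test, all among those called with the block. After a shift to equal medians it called 0, 2, 3, 0, 0, 1 and 4. The unpaired t-test after quantile normalization called 0 in each comparison after adjustment, and at 1.5-fold with an unadjusted p under 0.05 it called 2 for alloxan, 4 for both and 0 in the others. The calls outside those sets depend on the pairing of arrays by experiment. A share of all genes is given above for GlcN, alloxan and both in limma after quantile normalization. The other counts in this paragraph are given without such a share and do not single out the members.

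With only the groups compared, the blocked fit called 0 for GlcN, 0 for alloxan, 1 for both, 0 for alloxan added to GlcN, 0 for GlcN added to alloxan and 2 for GlcN against alloxan. It has fewer arrays to estimate the spread. Alloxan added to GlcN lowered 6 members with the filter at the 50th percentile and 7 after quantile normalization, against 3. GlcN added to alloxan lowered 1 with no filter and 1 after a shift to equal medians, against 2. The counts in this paragraph are given without the number of all genes called in the same settings. Whether the members or all genes gained or lost calls is therefore not shown.

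Leaving out an array or an experiment gave counts from 1 to 9 for GlcN, 3 to 12 for alloxan, 6 to 20 for both, 1 to 6 for alloxan added to GlcN, 0 to 3 for GlcN added to alloxan, 1 to 7 for GlcN against alloxan and 3 to 21 in the F test. Without experiment 1, or without experiment 2, these counts were 1 for GlcN, 3 for alloxan and 6 for both. The F test called 3 without experiment 1 and 6 without experiment 2. All genes called in these fits, in the same order, numbered 912 and 675 for GlcN and 772 and 885 for alloxan. They numbered 1477 and 1373 for both and 1921 and 1686 in the F test. The GlcN counts, and the F test count without experiment 1, were therefore near the share of all genes. Over all 16872 genes, leaving out an array or an experiment gave 675 to 2064 calls for GlcN, 761 to 2335 for alloxan and 1373 to 3000 for both. The ranges were 157 to 1555 for alloxan added to GlcN, 97 to 776 for GlcN added to alloxan, 1053 to 2692 for GlcN against alloxan and 1588 to 4553 in the F test.

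List medians with no test moved as follows. The sterol median for IL-1β was -0.058 after a shift to equal medians and ran from -0.028 to 0.0021 without 1 experiment. The fatty acid median for GlcN was -0.21 with SREBF1 added to the list and ran from -0.19 to -0.12. For GlcN against alloxan the sterol median was 0.040 after quantile normalization and ran from 0.0069 to 0.019, and the fatty acid median ran from 0.075 to 0.12. No direction reversed for any called value. Depth is not given by these arrays, and 3 arrays a condition limit what could be called.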
